A study of Mus musculus with 4 samples.

Results

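The genes described here are the mouse genes whose symbol is Cd followed by a number, a group that covers much of the surface antigen nomenclature of blood cells. Of the 28692 genes listed, 83 entries had such a symbol once Cd34, Cd48, Cd52, Cd69 and Cd74 were set aside, and the 64 with at least 10 UMIs (unique molecular identifiers, each standing for 1 captured transcript) over the 4 pools are the members. The other 19 entries held fewer, and 7 of them were listed at 0, namely Cd109, Cd207, 4 genes of the Cd209 family and a second identifier of Cd37. Just outside the limit, Cd6 held 9 UMIs and Cd300c 8, and just inside it Cd8b1 held 10.

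The cells were hematopoietic stem and progenitor cells (HSPCs) sorted as lineage-negative, Sca1+, cKit+ and Flt3- from the bone marrow of male C57BL/6-CD45.2 mice, with no genetic change or treatment in either group. Young mice of 2 to 3 months gave pool young A (2 mice) and pool young B (3 mice), and aged mice of 17 to 18 months gave aged A (3 mice) and aged B (2 mice). The letter marks the facility of capture and sequencing, HalioDX for A and TGML for B. According to the paper, aged A and young B were sequenced to more reads per cell than young A and aged B. Within each facility the ages thus also differed in read depth, in opposite directions in A and B. Each age thus has 2 pools, and a pool, not a cell or a mouse, is the replicate.

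CD numbers were given to leukocyte surface molecules recognised by groups of monoclonal antibodies, so the members share a naming rule and not a function. They include tetraspanins, which organise other proteins in the membrane, SLAM family and mucin-like adhesion molecules, regulators of complement, costimulatory ligands and receptors, scavenger receptors, and subunits of the antigen receptors of B and T cells. In bone marrow such antigens are the usual handles for sorting stem cells, progenitors and lineages. A UMI count reports the transcript and says nothing of the protein on the surface.

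In all, 14915 cells were kept, 2244 to 5189 per pool, with a median of 5674 to 6719 UMIs per cell and 16399999 to 36446168 UMIs per pool; pairs of pools shared 8 to 26 barcodes. Levels are given as CPM, the UMIs of a gene scaled to the UMIs of the pool, and since a 3′ library counts a transcript once whatever its length, CPM were not divided by length. The sort genes Kit and Ly6a (Sca1) were found at 71.7 to 164 and 164 to 355 CPM, and Flt3, whose protein was gated out, ran from 2.40 CPM in aged B to 48.0 CPM in young A. Markers of macrophages, mature neutrophils and of endothelium and stroma summed to 13.3 to 22.2, 6.40 to 10.7 and 41.2 to 90.0 CPM per pool, with Col3a1 at 0 throughout. The 10 genes of a B and plasma cell list summed to 583 and 479 CPM in young A and B and to 4292 and 2094 CPM in aged A and B.

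The promoters of 4 members that were called with age, both in all cells and in the cells of a stem list defined below, are printed to give the sequence context of the genes that the age comparison turns on. Each is the RefSeq window from 250 bases before an annotated start to the start itself on GRCm38.p6, read 5′ to 3′ on the gene's strand, with the capital marking the start that the table gives. Annotations place starts differently: the GENCODE genes of Cd38 and Cd37 begin further upstream, so that both windows lie inside them, and for Cd37 and Cd244 the start is not the outer edge of the RefSeq gene. Cd38 lies on the plus strand at chr5:43868559-43868809, Cd302 on the minus strand at chr2:60284484-60284734, Cd37 on the minus strand at chr7:45238839-45239089 and Cd244 (Cd244a in RefSeq) on the plus strand at chr1:171558943-171559193.
Cd38: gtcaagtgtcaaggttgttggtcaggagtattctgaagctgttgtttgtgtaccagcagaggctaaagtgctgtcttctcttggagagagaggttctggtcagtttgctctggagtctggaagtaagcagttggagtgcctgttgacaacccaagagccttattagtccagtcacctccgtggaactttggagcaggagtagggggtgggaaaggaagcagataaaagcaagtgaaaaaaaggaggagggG
Cd302: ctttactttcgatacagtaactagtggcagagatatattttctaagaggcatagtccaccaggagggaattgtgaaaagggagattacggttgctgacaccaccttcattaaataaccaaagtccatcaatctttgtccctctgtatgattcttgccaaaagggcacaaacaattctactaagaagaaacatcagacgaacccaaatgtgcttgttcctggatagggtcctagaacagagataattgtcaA
Cd37: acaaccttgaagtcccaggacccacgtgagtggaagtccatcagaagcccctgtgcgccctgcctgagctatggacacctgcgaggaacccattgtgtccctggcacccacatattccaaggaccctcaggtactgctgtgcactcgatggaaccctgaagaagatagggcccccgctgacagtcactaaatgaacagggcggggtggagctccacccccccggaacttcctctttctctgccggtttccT
Cd244: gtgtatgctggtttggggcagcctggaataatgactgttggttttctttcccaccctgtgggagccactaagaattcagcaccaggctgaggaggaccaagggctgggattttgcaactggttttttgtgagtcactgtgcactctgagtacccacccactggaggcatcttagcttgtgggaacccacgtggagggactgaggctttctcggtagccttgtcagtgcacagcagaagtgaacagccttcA
Promoters were found for 47 of the 64 members, and windows of 300 bases (50 beyond the start) were searched on both strands for 4 short motifs. GATAAG is known to be favoured by GATA factors, CCGGAAG by ETS factors and TGTGGT by RUNX factors, while TATAAA is a spelling of the TATA box. GATAAG was present in 8.51% of member promoters and 7.43% of all 27025 promoters, CCGGAAG in 4.26% and 9.12%, TGTGGT in 12.8% and 16.9%, and TATAAA in 12.8% and 14.2%. The promoters of the 6 members called with age held none of the 4 in these windows, whereas 34.0% of the members' and 40.2% of all promoters held at least 1.

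Most of the CD transcripts in HSPCs came from a few genes. Cd63, Cd81, Cd47, Cd24a and Cd9 together held 70.3% of the members' UMIs, and 10 genes held 82.8%. The median of the members' mean levels was 4.52 CPM. Of the 64, 27 reached 10 CPM and 21 stayed below 1 CPM. Cd63, Cd81, Cd47, Cd24a, Cd9 and Cd27 were seen in more than 50% of cells, while 25 members were seen in under 1% of cells. The summed level of the members was 3060 and 3106 CPM in young A and B and 3664 and 3283 CPM in aged A and B.

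**Figure D1:**
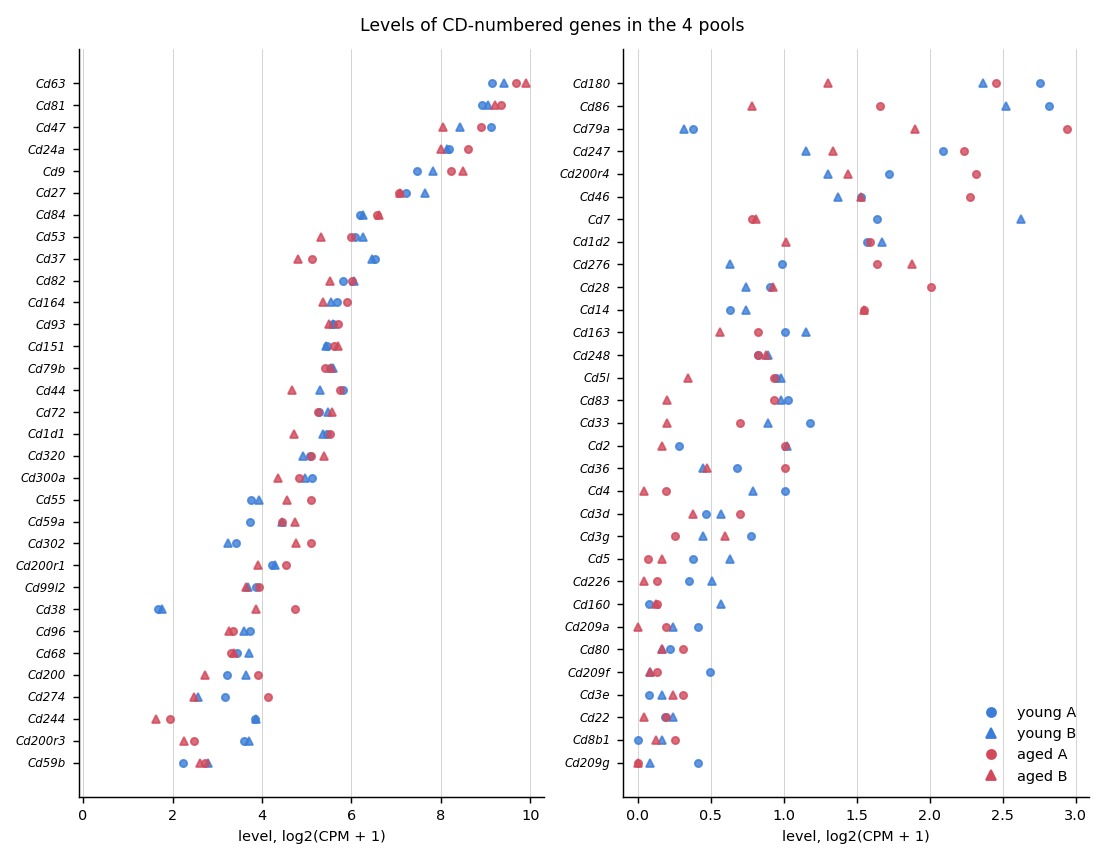
Levels of the members, 1 of the rarest left out, as log2(CPM + 1), in each of the 4 pools, in the order of their mean level; blue marks young and red aged pools, circles platform A and triangles platform B. The left panel runs from Cd63, near 9 to 10 on this scale, to Cd59b, and the right panel, with its own shorter axis, holds the rarer members, where Cd79a, Cd7 and Cd4 show wide gaps between the ages.

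The tetraspanins were the most abundant role, with 7 members and 55.1% of the members' UMIs. Cd63, which sits in late endosomes and secretory granules, was at 564 and 679 CPM in young A and B and at 814 and 955 CPM in aged A and B. Cd81 was at 484 and 530 CPM in the young and 650 and 592 CPM in the aged pools. Both were higher in both aged pools, but neither passed the test described below (edgeR, adjusted p = 0.412 and 0.677).

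Outside the tetraspanins, the levels fell off quickly within each role. Cd47, the ligand through which cells signal to phagocytes not to engulf them, had 554 and 343 CPM in young A and B and 473 and 265 CPM in aged A and B, so that its pools separated by platform rather than by age. Cd24a, a small glycosylphosphatidylinositol-anchored sialoglycoprotein, had 288 and 280 CPM in the young and 391 and 257 CPM in the aged pools, which overlapped. Cd27, a receptor of the TNF family, had 149 and 198 against 132 and 135 CPM. The SLAM family receptor Cd84 had 71.9 and 76.1 against 94.5 and 97.7 CPM, without overlap of the ages (edgeR, adjusted p = 0.427).

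Several members named for mature lineages were found at moderate and even levels. Cd79b, a signalling chain of the B cell receptor, had 45.0, 47.4, 41.8 and 46.0 CPM in young A, young B, aged A and aged B and was seen in 26.6% of cells. Cd72, an inhibitory coreceptor of B cells, had 37.8, 43.4, 37.1 and 46.7 CPM and was seen in 24.2% of cells. Their log2 fold changes with age were -0.128 and -0.0108, and the pools of the ages overlapped for both. By contrast Cd79a, the partner chain of Cd79b in the receptor, was seen in 0.650% of cells.

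The remaining roles were lower. Cd1d1, which presents lipids to T cells, had 42.7 and 40.4 CPM in young A and B and 44.8 and 25.3 CPM in aged A and B. Cd320, the receptor for vitamin B12 bound to transcobalamin, had 32.8 and 29.4 against 33.0 and 41.0 CPM. Cd300a, an inhibitory receptor of myeloid cells, had 33.9 and 30.0 against 27.4 and 19.4 CPM. The complement regulators Cd55 and Cd59a had mean levels of 20.7 and 19.9 CPM, and Cd200r1, the inhibitory receptor for Cd200, had 18.2 CPM. T cell members were rare. Cd247, the zeta chain of the T cell receptor complex, led them at a mean of 2.43 CPM, and the median of their 9 levels was 0.446 CPM.

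Rare members differed in how their transcripts were spread over cells. Cd200r3 had 4.51 UMIs per cell with a UMI and up to 20 in 1 cell, Cd79a 2.53 and up to 25, Cd3g 2.41 and up to 11, and Cd7 2.38 and up to 21, so these were many transcripts in few cells. The 20 cells with the most UMIs held 66.9% of the Cd79a UMIs, which lay in 97 cells, and 64.4% of the Cd7 UMIs, in 85 cells. They held 96.2% of the Cd3g UMIs, but Cd3g was seen in only 22 cells, so this share says little of its spread. Cd14, the coreceptor for lipopolysaccharide, and Cd4 were never seen with more than 1 UMI in a cell, over 135 and 53 UMIs. The Cd200r genes, Cd59a with Cd59b and Cd1d1 with Cd1d2 are related copies that may share reads, so their split is uncertain; how alike their sequences are was not computed.

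To ask how the members differed upon aging, UMIs were summed per pool and aged pools were compared with young ones within platforms by edgeR's quasi-likelihood test, with Benjamini-Hochberg adjustment over all genes and a threshold of 0.05. Cd38, Cd302 and Cd79a were higher in aged HSPCs, and Cd244, Cd37 and Cd200r3 were lower. These 6 were the calls among the 53 members that passed the filter on low counts: 3 higher, where 1.6% of all 13555 genes tested were called higher, and 3 lower, where 0.428% were called lower. DESeq2 called these and also Cd86 and Cd7, 8 members in all, with 4.01% of all genes called. The median log2 fold change was -0.061 over the members tested and 0.0122 over all genes. Without the platform block edgeR called no member and 0% of all genes, while the fold changes of the 6 hardly moved (Cd38 3.01, Cd244 -2.53). At an unadjusted p under 0.05 in that fit were 12 of 53 members and 1103 of all 13555 genes. Leaving out a pool also meant leaving out the block, since 3 pools with it leave no residual degree of freedom. Such edgeR fits called 4 members without young A (Cd38, Cd79a, Cd244 and Cd7, beside 2.08% of all genes). They called 3 without young B (Cd38, Cd79a and Cd244, beside 1.12%). They called none without aged A (beside 0.0284% of all genes called) and none without aged B (beside 0%). Cd302, Cd37 and Cd200r3 were called in none of these fits, with log2 fold changes of 1.62 to 1.64, -1.71 to -1.57 and -1.70 to -1.39. Of the 6, Cd79a passed the filter only through the aged pools, so its call is a description. In sums over a pool, fewer cells of a type and less RNA per cell cannot be told apart.

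**Figure D2:**
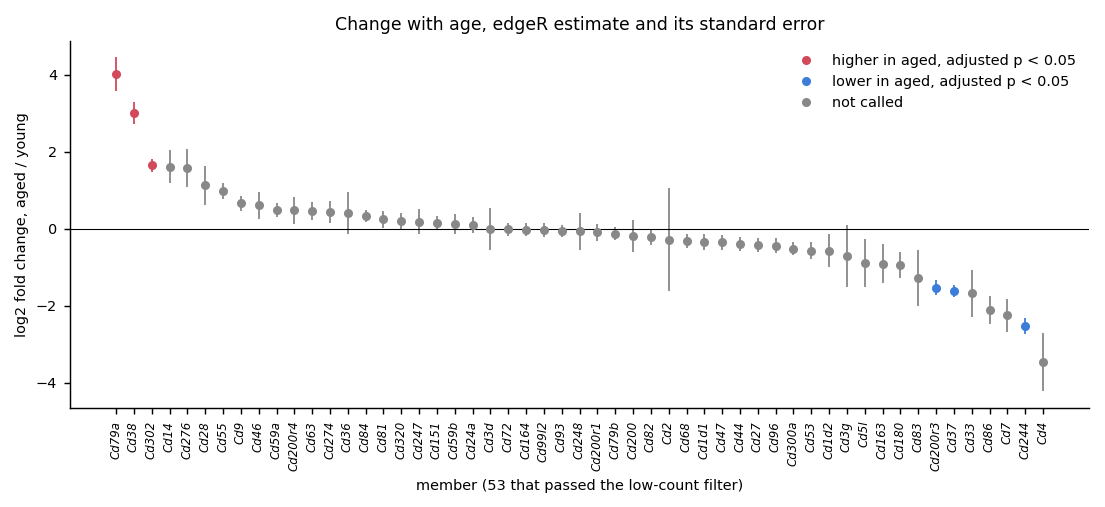
Log2 fold change with age (aged over young, edgeR, platform as block) of the 53 members that passed the low-count filter, in descending order. Bars show 1 standard error, worked back from the F statistic of the test. Red and blue mark the 3 members called higher and the 3 called lower; Cd4 at the right end, at -3.47, was not called.

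Cd38, an ectoenzyme that consumes NAD and is used as a surface marker in sorting stem cells, had 2.195 and 2.38 CPM in the young pools (A, then B) and 25.9 and 13.5 CPM in the aged ones. Both aged pools stood far above both young pools. The log2 fold change was 3.01 with a standard error of 0.290 (edgeR, adjusted p = 0.0217). This standard error, like the others given, was worked back from the F statistic of the test. With every cell thinned to 3000 UMIs, it was seen in 0.809% and 0.729% of young and 8.03% and 4.05% of aged cells. The gene, ENSMUSG00000029084, is protein coding and lies on chromosome 5 from 43868553 to 43912375.

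Cd302, a C-type lectin receptor known from myeloid cells, had 9.74 and 8.42 CPM in young A and B and 33.1 and 26.1 CPM in aged A and B, again without overlap. It rose by a log2 fold change of 1.65 with a standard error of 0.172 (edgeR, adjusted p = 0.0233). The gene, ENSMUSG00000060703, lies on chromosome 2 from 60251993 to 60284488. It was the call among the scavenger, pattern and myeloid receptors, of which 8 were tested and 1 was called.

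Cd79a had 0.302 and 0.244 CPM in young A and B, from 11 and 4 UMIs, and 6.69 and 2.73 CPM in aged A and B, from 139 and 91 UMIs. The log2 fold change was 4.01 with a standard error of 0.435 (edgeR, adjusted p = 0.0251). Cd79a passed the low-count filter only through the aged pools, so its call is a description. These UMIs lay in 97 cells. Of the 245, 163 lay in 26 of the 74 cells of a B and plasma-list class. Cells of this class carried at least 3 genes of the B and plasma cell list and fewer of every other marker list described below. The class held 5 and 1 cells in young A and B and 59 and 9 in aged A and B. In aged A, 32 of the 59 reached the limit through immunoglobulin and J chain genes alone. Cells of no lineage list are those deep enough to thin that joined none of the 6 lineage classes described below. They include the stem-list and mitotic-list cells as well as those that joined no list. Among them the log2 fold change of Cd79a was 2.52 (edgeR, adjusted p = 0.104). With cells thinned to equal depth it was 3.36 (edgeR, adjusted p = 0.0589), so that Cd79a was called in neither. The gene, ENSMUSG00000003379, lies on chromosome 7 from 24897381 to 24902197.

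Cd244, a SLAM family receptor (2B4) found on natural killer cells and on progenitors, was nearly equal in the 2 young pools, at 13.4 and 13.5 CPM, and fell to 2.84 and 2.07 CPM in aged A and B. Its log2 fold change was -2.52 with a standard error of 0.208 (edgeR, adjusted p = 0.0157). The gene, ENSMUSG00000004709, lies on chromosome 1 from 171559193 to 171609746.

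Cd37, a tetraspanin of leukocytes, had 91.8 and 86.8 CPM in young A and B and 33.7 and 27.0 CPM in aged A and B. It fell by a log2 fold change of -1.62 with a standard error of 0.160 (edgeR, adjusted p = 0.0217). It was the call among the 7 tetraspanins, whose other members ran from -0.565 for Cd53 to 0.66 for Cd9. The gene, ENSMUSG00000030798, lies on chromosome 7 from 45233632 to 45239115.

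Cd200r3, an activating receptor of the Cd200 receptor family known from mast cells and basophils, had 11.2 and 12.0 CPM in young A and B and 4.62 and 3.76 CPM in aged A and B. Its log2 fold change was -1.53 with a standard error of 0.196 (edgeR, adjusted p = 0.0366). With cells thinned to equal depth it was -1.0 and not called (edgeR, adjusted p = 0.105). Cells that joined the class of the mast cell list described below made up 1.77% and 1.46% of the cells deep enough to thin in young A and B and 0.888% and 0.458% in aged A and B. Within those cells Cd200r3 was at 435 and 558 CPM in the young and 410 and 901 CPM in the aged pools, with overlap. Among cells of no lineage list, which leaves out the mast-list cells, the log2 fold change was -2.30 (edgeR, adjusted p = 0.105). The gene, ENSMUSG00000036172, lies on chromosome 16 from 44943678 to 44981380.

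**Figure D3:**
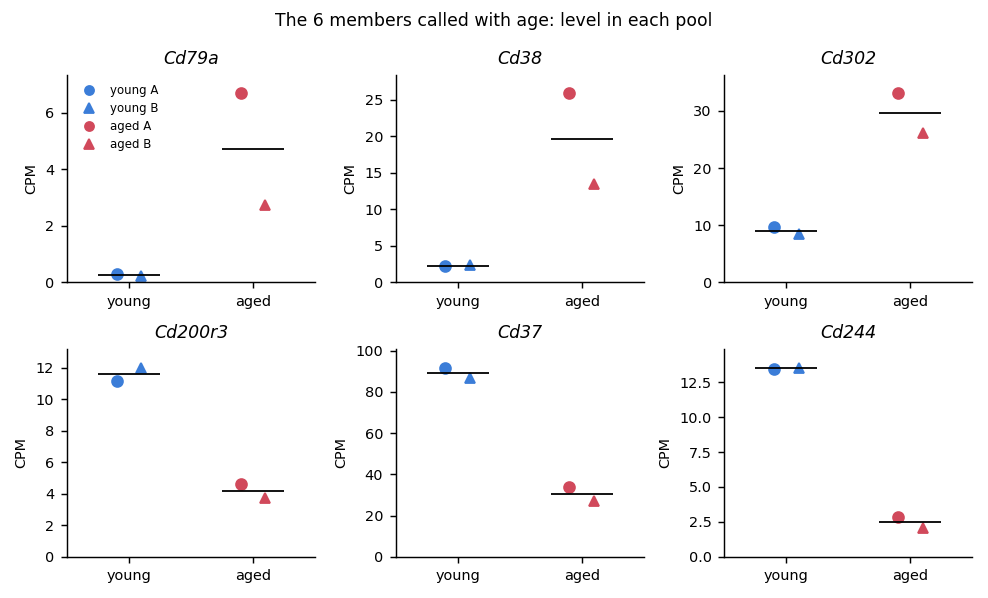
CPM of the 6 members called with age in each pool; circles mark platform A, triangles platform B, and the line the mean of the 2 pools of an age. In every panel the aged pools lie wholly above or wholly below the young ones, and aged A lies above aged B in all 6.

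Other members had large differences that did not pass the test in edgeR. Cd14 was at 0.549 and 0.671 CPM in young A and B and at 1.92 and 1.92 CPM in aged A and B (log2 fold change 1.61, adjusted p = 0.160). Cd276, a B7 family ligand, had 0.988 and 0.549 against 2.12 and 2.67 CPM (1.57, adjusted p = 0.214). Cd55 had 12.6 and 14.4 against 33.3 and 22.6 CPM (0.98, adjusted p = 0.111). For all of these the aged pools stood above the young ones without overlap.

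Among those lower, Cd86, a costimulatory ligand of Cd28, had 6.06 and 4.76 CPM in young A and B and 2.17 and 0.721 CPM in aged A and B (log2 fold change -2.11, edgeR adjusted p = 0.0721; DESeq2 adjusted p = 0.00771). Cd7, an immunoglobulin-like molecule of T and natural killer cells, had 2.11 and 5.18 against 0.722 and 0.751 CPM (-2.25, edgeR adjusted p = 0.0875; DESeq2 adjusted p = 0.0221). Cd4, the coreceptor for class II molecules, had 1.02 and 0.732 against 0.144 and 0.0300 CPM (-3.47, edgeR adjusted p = 0.108). Cd33, a sialic acid-binding lectin, had 1.26 and 0.854 against 0.625 and 0.150 CPM (-1.68, edgeR adjusted p = 0.274). For each of these the aged pools lay below the young ones, on counts that were low in the aged pools. Cd4 and Cd33 passed the filter on low counts only through the young pools, so their lower levels with age are a description.

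Counted over all 64 members, both aged pools lay above both young pools for 15, below for 19, and the ages overlapped for 30. Of the 53 that passed the filter, the aged pools lay above for 14 and below for 15, and over all genes tested the shares were 18.1% and 13.6%. By role, the calls in edgeR were 1 of 4 B cell members tested, 1 of 10 adhesion and mucin members, 1 of 4 in the enzyme, uptake and lipid presentation group, 1 of 8 scavenger, pattern and myeloid receptors, 1 of 7 tetraspanins and 1 of 3 members in no group. The B cell call was that of Cd79a, which is a description. None was called among 4 complement regulators, 8 costimulation and checkpoint members and 5 T cell members, and DESeq2 called Cd86 and Cd7 among them. Without the low-count filter edgeR called Cd55, Cd86 and Cd7 among them. In each of these roles 2 were at an unadjusted p under 0.05 in edgeR, beside 17 of the 53 members and 2175 of all 13555 genes.

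Between the facilities no member was called in the same edgeR fit, while 7.6% of all genes were called. At an unadjusted p under 0.05 were 7 of 53 members and 3636 of all 13555 genes. A list of 83 CD antigens whose genes carry other names, with 84 entries since Itgam has 2 identifiers, gave 77 tested entries and 6 calls with age in edgeR (11 in DESeq2). Selp (P-selectin), Jam2, Itgb3 and Slamf1 were higher by log2 fold changes of 4.24, 2.70, 2.48 and 2.13. Flt3 and Csf2rb, a cytokine receptor chain, were lower by -2.46 and -1.83. Their median was 0.0442, beside -0.061 for the members.

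To see in which cells the members were found, cells were grouped by 8 lists of 10 marker genes that hold no member. A cell thinned to 3000 UMIs joined the class with the most markers seen, if at least 3 were and no other list had as many. Cells with such a tie joined none. The classes held 5837 stem-list, 899 mitotic-list, 594 erythroid-list, 425 neutrophil-list, 222 megakaryocyte-list, 171 mast-list, 74 B and plasma-list and 46 T and innate lymphoid-list cells, 6417 joined none, and 230 were too shallow to thin. The limit cuts a range, since 123 to 4229 cells per list were 1 marker short of it. The neutrophil-list class was led by Elane, Cebpe and Mpo but also by Prg2 and Prg3, granule proteins of eosinophils, and the genes leading the stem-list class differed little from the rest (log2 fold change at most 1.8). Of the cells deep enough to thin, stem-list cells made up 28.7% and 28.9% in young A and B and 53.5% and 48.8% in aged A and B. Each class was compared with all other cells by edgeR with the pool as block, for the 6 classes with at least 10 cells in every pool. A member that passed the low-count filter only through the side where it was higher was selected for being high there, so its call is a description. Of the called members these were 3 of those higher in mast-list and 2 in neutrophil-list cells, and, of those lower, 4 in erythroid-list, 3 in stem-list, 2 each in mast-list, mitotic-list and neutrophil-list and 1 in megakaryocyte-list cells.

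Mast-list cells differed from other cells in many members, with 12 of the 38 members tested called higher and 7 lower (9.08% and 9.35% of all genes). The class is named after its marker list, and whether its cells were mast cells or basophils was not examined. Cd200r3 stood at 435, 558, 410 and 901 CPM in the mast-list cells of young A, young B, aged A and aged B and at 0.573 to 2.77 CPM in other cells, a log2 fold change of 8.6. Its relative Cd200r4 had 19.4 to 42.3 CPM in the class and at most 3.68 CPM elsewhere (4.43). Cd226, an activating receptor of lymphocytes, had 2.82 to 8.92 CPM and at most 0.313 CPM elsewhere, but from 5 UMIs in all, 1 or 2 per pool. In all 4 pools these genes were higher in the class, without overlap, and all passed the filter only through it.

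Abundant members rose in the same class. Cd63 reached 2794, 3838, 2510 and 4835 CPM, against 519 to 942 CPM in other cells (log2 fold change 2.41). Cd53, a leukocyte tetraspanin, reached 466 to 646 CPM against 37.2 to 66.5 CPM (3.43), and Cd244 17.8 to 58.1 CPM against 2.02 to 12.8 CPM (2.61). Cd7 had 21 UMIs in 9 of 171 cells, 17 of them in young A and none in aged A, and passed the filter in no other class. Among the members called lower, Cd27 had 42.6 to 73.2 CPM against 134 to 200 CPM (-1.30), and Cd59b had no UMI in the class. Cd59b passed the filter only through the other cells, so its call is a description.

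Megakaryocyte-list cells had 2 of the 39 members tested called higher and 8 lower (5.22% and 6.88% of all genes). Cd9, a tetraspanin abundant on platelets, was at 525, 727, 823 and 682 CPM in young A, young B, aged A and aged B, against 169 to 353 CPM elsewhere (log2 fold change 1.39). Cd180, a Toll-like receptor relative known from B cells, was at 9.96 to 32.2 CPM against 1.34 to 5.33 CPM (2.49). Its 43 UMIs came from 35 of the 222 cells. Cd82, Cd53 and Cd24a were lower in these cells by -1.34, -1.75 and -0.904.

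Erythroid-list cells had few of the 39 members tested called higher, 3 against 16 lower (12.8% and 13.4% of all genes). Cd59a, which blocks the membrane attack complex, was at 26.7, 58.2, 36.1 and 31.0 CPM against 11.4 to 25.5 CPM elsewhere (log2 fold change 1.03, edgeR, adjusted p = 6.73e-05). Cd55, which disables complement convertases, was called at 0.526, although in aged B it was lower in the class (18.2 CPM) than outside it (22.8 CPM). Cd47 was called at 0.253. Without young A, young B or aged A, Cd55 was at 0.451, 0.426 and 0.437 and was not called, and Cd47 was not called without young A or aged A (0.279 and 0.174); 9 members in all were called without young A. Cd53 was lower by -1.99, Cd86 by -2.65 on 3 UMIs in the class, and Cd63 and Cd27 by -0.743 and -0.858.

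Neutrophil-list cells had 10 of the 41 members tested called higher and 11 lower (12.5% and 13.3% of all genes). Cd53 was at 231, 209, 297 and 254 CPM against 35.9 to 68.7 CPM elsewhere (log2 fold change 2.36, edgeR, adjusted p = 2.67e-10). Cd244 was at 24.3, 31.9, 13.6 and 20.1 CPM against 1.83 to 12.8 CPM (1.75, edgeR, adjusted p = 0.000347). Cd163, the scavenger receptor for hemoglobin with haptoglobin, was called at 2.35, at 2.38 to 5.67 CPM in the class and 0.427 to 1.15 CPM elsewhere, from 14 UMIs in the class, and was not called without aged A (1.89); it passed the filter only through the class. The monocyte and macrophage antigen Cd68, a lysosomal glycoprotein, was higher by 1.11, and Cd59a, Cd55 and Cd38 were lower by -1.56, -1.20 and -2.11. Of these, Cd38 passed the filter only through the other cells, so its call is a description.

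Mitotic-list cells had 5 of the 42 members tested called higher and 16 lower (19.1% and 18.5% of all genes). Cd93, a C-type lectin-like receptor of early progenitors, was at 65.9, 58.9, 93.1 and 71.0 CPM against 41.6 to 47.9 CPM in other cells (log2 fold change 0.651, edgeR, adjusted p = 2.88e-05). Cd180 and Cd244 were called at 1.2 and 0.814. Cd63, Cd82 and Cd38 were lower by -1.05, -1.04 and -1.82, and Cd38 passed the filter only through the other cells, so its call is a description.

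Stem-list cells had 14 of the 43 members tested called higher and 7 lower (21.4% and 21.3% of all genes). Cd38 was at 4.04 and 4.01 CPM in the stem-list cells of young A and B and at 33.9 and 16.8 CPM in those of aged A and B, against 1.64, 1.84, 17.6 and 10.8 CPM in other cells (log2 fold change 0.877, edgeR, adjusted p = 1.74e-05). Cd200, an immunoglobulin-like ligand, was at 13.4, 17.7, 16.2 and 6.75 CPM against 6.85, 9.83, 11.5 and 4.72 CPM (0.688, edgeR, adjusted p = 0.000125). Cd247 was called at 0.968, although in young B it was lower in the class (1.07 CPM) than outside it (1.28 CPM). Cd200r3, Cd180 and Cd244 were lower by -4.78, -2.53 and -1.76, with Cd244 at 5.23, 6.95, 0.888 and 0.524 CPM in the class. Each of these passed the filter only through the other cells, so their calls are descriptions.

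**Figure D4:**
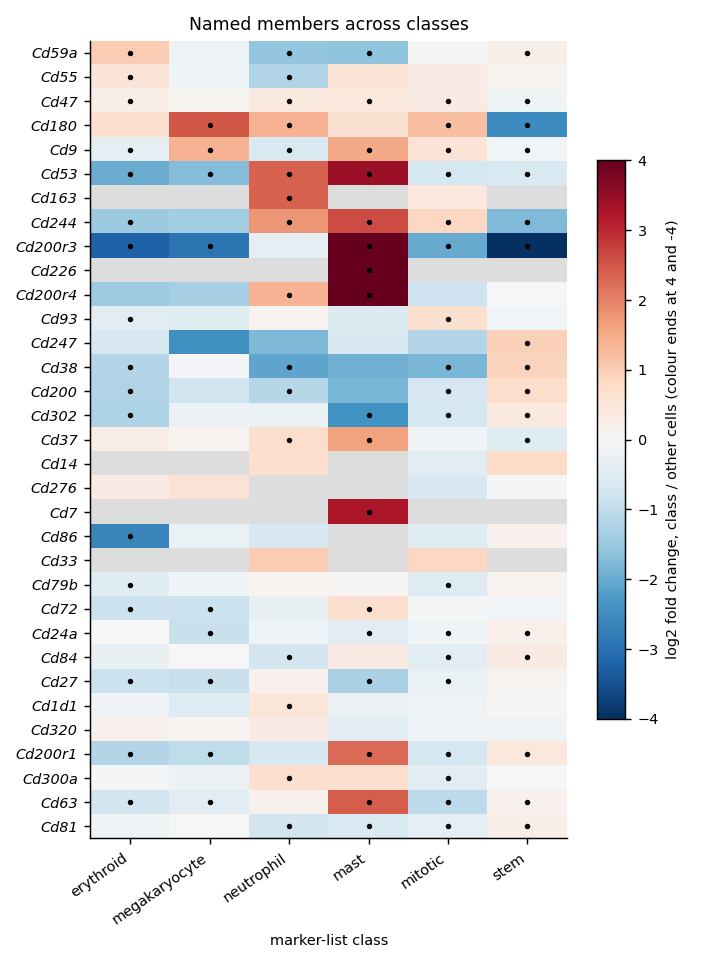
Log2 fold change of each named member in 6 classes of cells against all other cells (edgeR, pool as block). Red is higher and blue lower in the class, with colours ending at 4 and -4. Grey marks a member that did not pass the low-count filter there, and a dot marks an adjusted p under 0.05. Cd53 and Cd244 are red in the mast and neutrophil columns and blue in the erythroid and stem columns. In the erythroid and stem columns Cd244 passed the filter only through the other cells.

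The B and plasma-list and T and innate lymphoid-list classes had 1 cell in a pool and were not tested. Among the 46 T and innate lymphoid-list cells, Cd7 had 42 UMIs in 8 cells, or 17.4% of them (exact 95% interval 7.82 to 31.4%, which covers counting error only), Cd2 20 UMIs in 8 cells, Cd3g 18 UMIs in 5 and Cd3d 7 UMIs in 2. Cd7 was seen in 16 of 5837 stem-list cells (median depth of 5176 to 6341 UMIs per pool, against 4108 to 6367 in the T and innate lymphoid-list cells). All 42 Cd7 UMIs came from young A and B, which held 36 of the 46 cells. Among the 74 B and plasma-list cells, whose median depth was 5433 to 13847 UMIs per pool, Cd79a was seen in 26, or 35.1% (24.4 to 47.1%), beside 33 of the 5837 stem-list cells, Cd79b in 28 and Cd28, which plasma cells are also known to carry, in 8.

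Age differences were then read within classes. The genes of the stem list summed to 751 and 784 CPM in young A and B and to 1457 and 1329 CPM in aged A and B. The list may thus admit different cells at each age, so a comparison within it need not hold the cell state fixed. In stem-list cells alone, 4 of the 41 members tested were called with age (1.36% of all 12125 genes), Cd38 and Cd302 higher and Cd37 and Cd244 lower, by log2 fold changes of 2.61, 1.30, -1.69 and -3.13 (edgeR, adjusted p = 0.0214, 0.0450, 0.0151 and 0.0463). In that fit, which pools carried a member past the low-count filter was not checked. Cd244 was low in the aged pools there, so its call is a description. In cells that joined no list, Cd38 was at 2.12 and 2.17 CPM in young A and B and 21.8 and 12.8 CPM in aged A and B, and Cd244 at 15.0 and 13.3 against 2.69 and 2.46 CPM. Cd37 in stem-list cells was at 75.2 and 74.1 against 26.5 and 20.6 CPM, and Cd302 at 13.7 and 11.8 against 33.9 and 30.2 CPM. Over the 53 members tested, both platforms had the aged pool higher in both the stem-list and the no-list cells for 13 and lower in both for 17. The share over all genes was not computed, so whether these counts are particular to the members is not known.

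In mast-list cells Cd244 was at 47.9 and 58.1 CPM in young A and B and at 50.5 and 17.8 CPM in aged A and B, and in neutrophil-list cells it was at 24.3 and 31.9 against 13.6 and 20.1 CPM. The ages overlapped in the mast-list cells and not in the neutrophil-list cells. In aged A and B the mast-list class held only 28 and 19 cells and the neutrophil-list class 103 and 37. Age differences within these classes were not tested. Cd53 was at 35.5 and 42.3 CPM in the stem-list cells of young A and B and at 45.9 and 44.1 CPM in those of aged A and B, without overlap, and its log2 fold change there was 0.193 (edgeR, adjusted p = 0.772). Over all cells it was -0.565 (edgeR, adjusted p = 0.320).

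**Figure D5:**
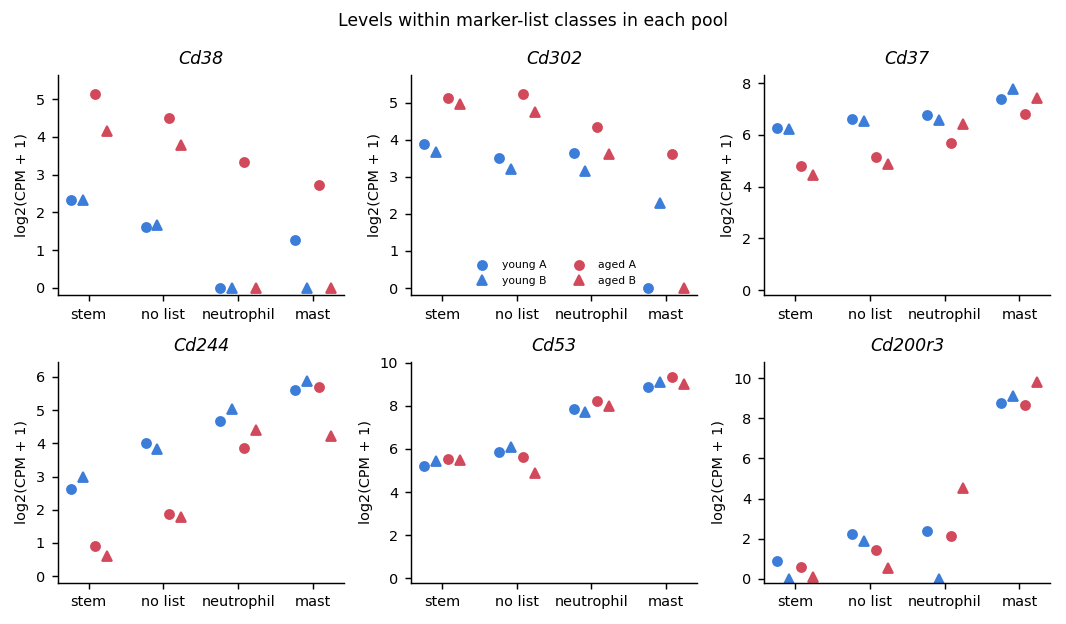
Levels of 6 members, as log2(CPM + 1), in each pool within stem-list, no-list, neutrophil-list and mast-list cells; blue marks young and red aged pools, circles platform A and triangles platform B. Cd38 and Cd302 are higher and Cd37 and Cd244 lower in the aged pools of the stem-list and no-list cells, while Cd200r3 lies near 9 to 10 in the mast-list cells of both ages; points at 0 are pools with no UMI, and the mast-list class held as few as 19 cells in a pool.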

How the data were processed

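HSPCs were captured with 10x Genomics 3′ v2 chemistry. Per the labels, the authors used Cell Ranger 2.2.0 with GRCm38 (mm10) and deposited raw UMI counts for 15566 barcodes. Cells were kept if their log UMI count lay within 2 SD of the pool's mean, as in the study; no doublet caller was run. Free-text descriptions of young B and aged A name the other age, so ages follow titles and source names. Counts were summed per pool and tested with edgeR 4.0.16 (TMM, filterByExpr, quasi-likelihood) with platform as the replicate block, since the letter marks the facility; the A minus B differences of young and aged pools correlated at 0.472 across 13555 genes. Standard errors were worked back from the edgeR test, as the absolute log2 fold change over the square root of its F statistic. They are approximate and need not match the p-values. DESeq2 1.42.0, other size factors, no filter, no block, each pool left out, all barcodes, thinned cells, subsets of cells and other marker limits were alternatives. The age fit had 1 residual degree of freedom and leaned on the spread shared over genes. In the megakaryocyte and mast fits the spread was wholly shared, so no adjusted p or standard error is printed there. On counts simulated for the age comparison (13427 genes), the fit found 94 of 95 4-fold and 77 of 102 2-fold differences and made 7 false calls. The simulation gave every gene the same spread and no platform difference, unlike the data. It checks that the fit runs and does not measure what the age comparison can find. Coordinates are from GENCODE vM21 (GRCm38) and promoters from RefSeq; protein sequences were not used here. Members, lists and tests were chosen with earlier results of these data known. By rule, the text names members called with age, the 5 largest and 5 smallest changes of the same sign on both platforms, the 2 highest of each role and the 3 largest per class; other members named were chosen after their values were seen. The values of 1 rare member are not reported here.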

Additional observations from a re-analysis of the deposited data

Results flagged for a closer look

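For 2 members the aged pool differed from the young pool in opposite directions in stem-list and in no-list cells on both platforms. This difference between the classes was not tested, and how many of all genes show it was not counted. Cd53 differed, aged minus young in log2(CPM + 1), by 0.36 (platform A) and 0.0608 (B) in stem-list cells, and by -0.237 and -1.23 in no-list cells. Cd5l, a secreted scavenger protein of macrophages, differed by 0.0965 and 0.0671 in stem-list cells, from 25 UMIs, and by -0.136 and -0.831 in no-list cells, from 44 UMIs.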

How the results depend on the processing

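With no replicate block, the number of members called with age went from 6 to 0, that of other CD antigens from 6 to 0 and that of all genes from 275 to 0; those per class went to 1 (erythroid), 2 (megakaryocyte), 5 (neutrophil), 12 (mast), 2 (mitotic) and 2 (stem), beside 1.07%, 0.468%, 4.49%, 6.46%, 5.69% and 2.60% of all genes. With 1 pool and the block left out together, where the lone pool of an age is assumed to vary like the others, 0 to 4 members and 0 to 7 other CD antigens were called with age, beside 0 to 287 of all genes. With 1 pool left out and the pool block kept, 9 to 22 members were called in the erythroid class, where 38 to 43 were tested (14.9% to 26.9% of all genes). With cells thinned to equal depth, 4 members were called with age (2.38% of all genes), without Cd79a and Cd200r3. DESeq2 called 11 other CD antigens with age. With no low-count filter, 9 of 64 members and 14 other CD antigens were called with age (4.07% of all genes), and 2 members between platforms (9.61%). The 9 were the 6 of the main fit and Cd55, Cd86 and Cd7. With at least 2 markers, 12 of 40 members tested were called in the erythroid class (16.4% of all genes). At least 4 markers gave too few megakaryocyte-list cells to fit. Of the values named with age, Cd72 turned from -0.0108 to 0.0154 without the block, 0.0294 with all barcodes, 0.00467 in thinned cells and 0.231 in stem-list cells, Cd24a to -0.0206 in stem-list cells, and Cd247 to -0.116 in thinned cells. Leaving out 1 pool, the log2 fold change ran from -0.374 to 0.0989 for Cd79b, -0.361 to 0.307 for Cd72, -0.424 to 0.848 for Cd247, -0.0353 to 0.235 for Cd24a, -0.135 to 0.515 for Cd320 and -0.267 to 0.0514 for Cd200r1; none of these 6 was called. Why these values moved was not tested. With 2 pools per age and 21 members below 1 CPM, depth limits what the rare members can show.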
